A study of Mus musculus with 12 samples.

Results

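The response of macrophages to LPS and IFNγ was compared between cells with and without inducible NO synthase, gene by gene. BMDMs, macrophages grown from bone marrow with the growth factor M-CSF, came from WT mice (C57BL/6) and from Nos2-/- mice (B6.129P2-Nos2tm1Lau/J), which carry the disrupted gene in every cell, and were stimulated for 8 h with LPS at 100 ng/mL plus IFNγ at 50 ng/mL or left with PBS as vehicle. Each genotype was measured untreated and stimulated, with 3 arrays in each of these 4 groups, and all 12 arrays were used. The titles of the vehicle arrays say untreated and give no time, whereas the methods give vehicle for the same time, so they are called untreated. The labels call the arrays of a group biological replicates but do not say which mice they came from, and they give no age. The methods give an age range for all mice of the study and describe them as matched for age and sex. The deposited values are log2 signals made by the authors with RMA, a method that corrects background, normalizes arrays to a common distribution and summarizes the probes of a probe set. Each of 18193 genes was represented by the probe set with its highest mean signal among those that name it alone. For each gene the response within a genotype was the mean of the stimulated minus that of the untreated arrays. The difference between the responses was the Nos2-/- response minus the WT response, both on the log2 scale. All 18193 genes were tested for this difference with limma, and those with a p under 0.05 after Benjamini-Hochberg adjustment are the called genes.

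NO made by the NOS2 enzyme from arginine is a reactive product of inflammatory macrophages that attacks microbes and also the cells' own iron-containing and thiol-containing proteins. Cells meet such stress through the transcription factor Nrf2, which is held back by Keap1 and, with small Maf partners, binds antioxidant response elements near genes for glutathione synthesis, thioredoxin recycling, quinone reduction and heme breakdown. LPS and IFNγ raise inflammatory genes mainly through NF-kB and the STAT and IRF factors. HIF1a, which is regulated by oxygen-sensing hydroxylases of the EGLN family, is also active in these cells.

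The responses differed in 178 of 18193 genes, which is 0.978%. In 55 genes (0.302%) the difference was above 0, so that stimulation left them relatively higher in Nos2-/-, and in 123 (0.676%) it was below 0. At an unadjusted p under 0.05, 868 genes were higher and 957 lower. Among the called genes the median size was 0.72 on the log2 scale, against a median standard error of 0.12 over all genes, and 40 had a size of at least 1, of which 35 were lower. Over all genes the median difference was −0.01. Without 1 array the count was 93, 96 or 106 for the untreated WT arrays, 114 for stimulated WT array 1 and 115 for untreated Nos2-/- array 1. The higher genes numbered 29 without moderation of the variances and 124 with an intensity trend. In WT 29.6% of all genes rose and 28.4% fell, and in Nos2-/- 26.3% rose and 28.2% fell. A rise was called in both genotypes for 3820 of the 5393 genes with a rise in WT, and 71 of the 3820 had a called difference. A fall was called in both for 4713 of the 5166 with a fall in WT, and 47 of the 4713 had one. Called responses of opposite direction were rare. A rise in WT was paired with a fall in Nos2-/- for 25 genes, of which 22 had a called difference, and a fall in WT with a rise in Nos2-/- for 5, of which 2 did.

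**Figure D1:**
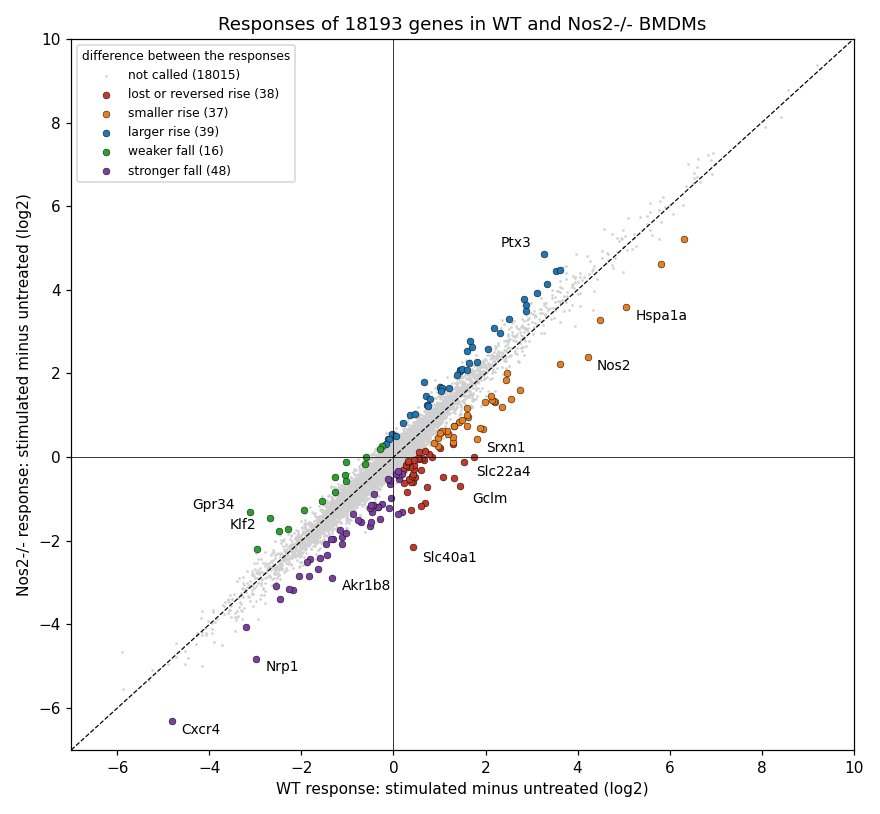
Response to stimulation of 18193 genes in WT (x axis, log2) and Nos2-/- BMDMs (y axis, log2), each point a gene and the dashed line equal responses. The 178 coloured genes, those with a called difference between the responses, lie off the line by pattern, with 38 lost or reversed rises and 37 smaller rises below it on the right.

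The called genes fell into 5 patterns by their responses within each genotype. A lost or reversed rise, a rise in WT with no rise called in Nos2-/-, was found in 38 genes, and a rise in both that was smaller in Nos2-/- in 37. A larger rise was found in 39 genes, 5 of which were not called in WT. A fall in WT that was weaker in Nos2-/- was found in 16 genes, of which 11 still fell there, 3 were not called and 2 rose. A fall in Nos2-/- that was stronger than in WT was found in 48, of which 12 were not called in WT. A rise called in WT alone did not by itself show that the responses differed. There were 1573 genes that rose in WT and were not called as rising in Nos2-/-, and the difference was called in 38 of them. Likewise 453 genes fell in WT and not in Nos2-/-, with 5 called differences.

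The differences lay mostly on the stimulated arrays. Between the untreated genotypes 1 gene was higher (0.0055% of all), Tlcd2, and 1 lower (0.0055%), the interferon-induced Xaf1, and 0 of the 178 were called in limma. Between the stimulated genotypes 1.03% of all genes were higher and 1.91% lower in Nos2-/-, and 171 of the 178 were called, a count that shares its arrays with the difference between the responses. In 176 of the 178 genes the stimulated arrays of the genotypes did not overlap, and in 46 the untreated arrays did not. Over all genes the stimulated arrays did not overlap in 17.1% and the untreated arrays in 12.6%. The stimulated count is largely built in, because these arrays enter the difference that chose the genes. Of the 9 macrophage markers measured 0 had a called difference in limma. At the 0.978% called over all genes, a list this short would mostly show 0. The log2 of their summed signal ran from 16.19 to 16.24 over all 12 arrays, but this sum combines falls and rises. With stimulation the mean signals of Csf1r, Cd68, Adgre1, Mertk and Lyz2 fell in both genotypes, and those of Itgam, Fcgr1, Cd14 and Spi1 rose. Of the markers of 8 other cell types 0 were called, and the log2 of their summed signals was at most 9.52 except for megakaryocytes. That list was carried by Pf4, which macrophages also make, and ran from 11.25 to 11.56 in stimulated WT and from 10.96 to 11.23 in stimulated Nos2-/-. Its part in the results was not tested. These are bulk cultures, so fewer cells of a kind and less RNA per cell cannot be told apart.

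An iron gene led the lost and reversed rises. Slc40a1 encodes ferroportin, the exporter that carries iron out of macrophages. Its log2 signals were 8.46, 8.52 and 8.29 in untreated and 8.89, 8.68 and 8.96 in stimulated WT, and 7.92, 7.95 and 8.20 in untreated and 5.88, 5.91 and 5.85 in stimulated Nos2-/-. The stimulated Nos2-/- arrays lay far below every other array, and the untreated Nos2-/- arrays also lay below untreated WT, an average difference of −0.40 that was not called (adjusted p = 0.782). Stimulation changed the signal by 0.42 in WT and −2.14 in Nos2-/-, a difference of −2.56 (95% CI −2.85 to −2.28) and adjusted p = 7.16e-07, the lowest of all genes tested. Slc48a1, which encodes a heme transporter of lysosomes, rose by 0.30 in WT and changed by −0.83 in Nos2-/-. Blvrb, a biliverdin reductase of heme breakdown, rose by 0.78 in WT and had a response of 0.08 in Nos2-/-, which was not called. Hmox1, the oxygenase that opens the heme ring, rose in both genotypes but less in Nos2-/-. The Hmox1 signals were 11.52, 11.42 and 11.55 untreated and 13.70, 13.66 and 13.66 stimulated in WT, and 11.38, 11.48 and 11.36 and 12.71, 12.85 and 12.66 in Nos2-/-, so the stimulated genotypes did not overlap, and the difference was −0.84 (95% CI −1.05 to −0.64). Of 27 iron and heme genes measured, these 4 (14.8%) were lower, 0 were higher and 23 were not called, with a list median of −0.04. The transferrin receptor Tfrc (−0.23), the natural resistance transporter Slc11a1 (−0.30) and the iron importer Slc11a2 (0.04) were among those not called. Over all genes 0.676% were lower and 0.302% higher. The members of this and the other gene lists were chosen with earlier results of these data known. The share called in a list is therefore a description and not a test of the gene family.

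Both subunits of glutamate-cysteine ligase, which carries out the first step of glutathione synthesis, rose in WT and fell in Nos2-/-. For Gclm, the modifier subunit, the signals were 10.68, 10.74 and 10.58 in untreated and 12.13, 12.19 and 12.02 in stimulated WT. In Nos2-/- they were 10.78, 10.74 and 10.82 untreated and 10.20, 10.16 and 9.89 stimulated. Stimulated WT arrays were the highest and stimulated Nos2-/- arrays the lowest, with the untreated arrays of both genotypes in between. Its difference was −2.15 (95% CI −2.40 to −1.89), with adjusted p = 8.26e-07. For Gclc, the catalytic subunit, the signals went from 9.01, 9.09 and 9.02 to 9.76, 9.75 and 9.70 in WT and from 9.10, 9.03 and 9.12 to 8.22, 8.03 and 7.69 in Nos2-/-, with the same order of the groups and a difference of −1.79 (95% CI −2.10 to −1.48). Gss, the enzyme of the next step, belonged to the stronger falls. It had signals of 7.06, 7.05 and 7.07 in untreated WT, 6.94, 7.07 and 7.02 in stimulated WT and 6.93, 7.04 and 7.03 in untreated Nos2-/-, and reached 6.28, 5.97 and 5.85 in stimulated Nos2-/-, below all of them, with a difference of −0.91 (95% CI −1.19 to −0.64). Abcc1, an exporter of glutathione conjugates, rose by 0.54 in WT and had a response of −0.01 in Nos2-/-. Its difference of −0.55 stood at the edge of the threshold (adjusted p = 0.0496) and was called under 6 of 21 alternatives. The other 11 of 15 genes for glutathione synthesis and cystine supply were not called, among them the cystine transporter Slc7a11, which rose by 4.98 in WT and 4.44 in Nos2-/-, and its partner subunit Slc3a2 (0.55 and 0.37). The list median was −0.18.

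A few enzymes that restore oxidized thiols or reduce carbonyls and quinones were also lower. Srxn1, sulfiredoxin, reactivates overoxidized peroxiredoxins. Its signals were 9.35, 9.32 and 9.30 in untreated and 11.18, 10.99 and 11.08 in stimulated WT, against 9.47, 9.42 and 9.51 and 9.62, 9.43 and 9.37 in Nos2-/-, where the treated and untreated arrays overlapped. It rose by 1.76 in WT and was not called in Nos2-/-, where the response was 0.00 (95% CI −0.16 to 0.17), and the difference was −1.75 (95% CI −1.98 to −1.53). Thioredoxin reductase 1, Txnrd1, rose by 1.29 in WT and 0.36 in Nos2-/-, a difference of −0.93 (standard error 0.09). The thioredoxin inhibitor Txnip had a higher difference, by a weaker fall. In the thioredoxin and peroxiredoxin list 1 of 15 genes was thus higher, 2 were lower and 12 were not called, with a median of −0.06. Cbr3, a carbonyl reductase, had signals of 9.26, 9.26 and 9.21 and 9.96, 9.71 and 9.86 in untreated and stimulated WT and of 9.20, 9.11 and 9.26 and 7.98, 8.04 and 8.04 in Nos2-/-. Its stimulated arrays stood above all others in WT and below all others in Nos2-/-, with a difference of −1.77 (95% CI −1.98 to −1.55). Ptgr1, a reductase of prostaglandins, followed the same order, with responses of 1.07 and −0.47. Akr1b8, an aldo-keto reductase, fell in both genotypes, from 10.61, 10.51 and 10.63 to 9.23, 9.26 and 9.28 in WT and from 10.58, 10.71 and 10.71 to 7.86, 7.71 and 7.74 in Nos2-/-, and the lower stimulated level in Nos2-/- did not overlap that in WT. Nqo1, the classical quinone reductase of the Nrf2 response, was not called in WT, where it went from 6.41, 6.55 and 6.44 to 6.47, 6.50 and 6.71. Its signals in Nos2-/- went from 6.73, 6.58 and 6.59 to 5.58, 5.18 and 5.07, below every other array, with a difference of −1.46 (95% CI −1.80 to −1.11). These 4 genes were the called ones among 18 reductases (22.2%, all lower, list median −0.08), and the remaining 14 were not called. Of 22 glutathione S-transferases 1 was called, Gstp1 (−0.72), which its close copy Gstp2 makes uncertain, and of 10 superoxide dismutases, glutathione peroxidases and catalase 1, catalase itself (Cat, −0.85, called under 12 of 21 alternatives).

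**Figure D2:**
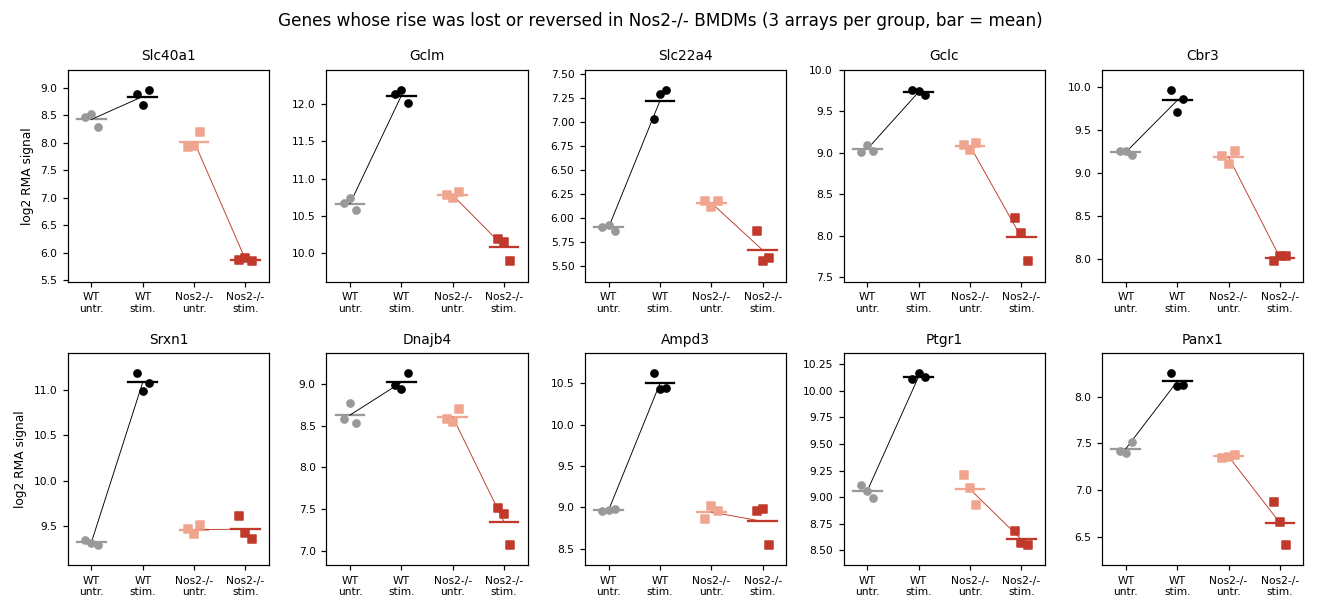
Log2 RMA signals of the 10 genes with the largest lost or reversed rise, in each of 12 arrays (points) with group means (bars) and lines joining untreated to stimulated within a genotype. In all 10 panels the stimulated Nos2-/- arrays lie below the stimulated WT arrays, and in 8 genes the Nos2-/- response was called as a fall.

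NADPH supplies these reductases. Of 15 genes of the pentose phosphate pathway and other NADPH sources 3 (20.0%) were lower and 0 higher, with a list median of −0.24. Me1, malic enzyme, went from 7.52, 7.53 and 7.54 to 7.95, 8.00 and 7.88 in WT and from 7.48, 7.68 and 7.64 to 7.31, 7.22 and 7.04 in Nos2-/-, rising in the first and falling in the second. Pgd, a dehydrogenase of the pentose phosphate pathway, rose by 0.28 in WT and changed by −0.24 in Nos2-/-. Taldo1, transaldolase of the same pathway, fell in both, with responses of −0.33 and −1.19, a difference of −0.85 (95% CI −1.06 to −0.65). The cytosolic isocitrate dehydrogenase Idh1, chosen after its value was seen, was at −0.70 and missed the threshold (adjusted p = 0.0568). The factors themselves were also measured. Nfe2l2, which encodes Nrf2, rose by 0.40 in WT and 0.68 in Nos2-/- (adjusted p of the difference = 0.176), and Keap1 by 1.11 and 1.06 (adjusted p = 0.931). Among 10 such factors 2 were lower, the small Maf gene Mafg (−0.44, called under 10 of 21 alternatives) and Sqstm1, an autophagy receptor that binds Keap1 (−0.50, 16 of 21). Keap1 and Maff were chosen after their values were seen, and Maff, at −0.50, was just short of the threshold (adjusted p = 0.0513).

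Promoter sequence was read for the called genes because genes of glutathione and thiol metabolism were among the lower ones. RefSeq promoters on GRCm38.p6, the 250 bases before each gene's start, were found for 14452 of the 18193 genes and for 138 of the 178 called ones. The core letters of the antioxidant response element, TGACNNNGC on either strand, were present in 13.5% of all 14452, in 15 of 97 lower genes (15.5%) and in 4 of 41 higher genes (9.76%). By pattern they were in 8 of 30 smaller rises (26.7%) and in 2 of 26 lost or reversed rises (7.69%). In 0 of these 19 called genes did the match overlap the letters TGANTCA of an AP-1 site, on either strand, which 6.7% of all promoters held. These shares are near those of all promoters for the lower and higher genes, and no test was run. Elements further than 250 bases before the start were not read, so the shares do not show that a gene lacks the element. The letters ACGTG of a hypoxia response element were in 22.5% of all promoters, 23.7% of lower and 26.8% of higher genes. A match is a description of letters and not of binding. Windows are shown for 3 genes of the glutathione, thioredoxin and small Maf groups, with the match in capitals, read 5′ to 3′ along the gene's strand. In all 3 the capitals are the element on the opposite strand. They lie 125 bases before the start of Gclm, 83 before that of Txnrd1 and 213 before that of Mafg. The windows are at chr3:122245383-122245471 on the plus strand, chr10:82859074-82859162 on the plus strand and chr11:120633721-120633797 on the minus strand.
Gclm: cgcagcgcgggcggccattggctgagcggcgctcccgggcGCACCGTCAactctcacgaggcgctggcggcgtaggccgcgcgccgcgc
Txnrd1: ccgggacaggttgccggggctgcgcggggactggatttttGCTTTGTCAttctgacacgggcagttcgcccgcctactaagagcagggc
Mafg: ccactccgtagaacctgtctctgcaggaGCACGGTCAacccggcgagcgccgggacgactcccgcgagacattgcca

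Other genes that lost their rise have more varied roles. Slc22a4 encodes a carrier of ergothioneine and organic cations. It had signals of 5.91, 5.93 and 5.87 and 7.04, 7.30 and 7.34 in WT and of 6.18, 6.12 and 6.18 and 5.86, 5.55 and 5.58 in Nos2-/-, where the stimulated arrays lay below the untreated ones, with a difference of −1.82 (95% CI −2.10 to −1.54). Ampd3, an AMP deaminase, rose in WT from 8.95, 8.96 and 8.98 to 10.62, 10.43 and 10.45. In Nos2-/- its arrays overlapped, at 8.86, 9.01 and 8.95 untreated and 8.96, 8.98 and 8.55 stimulated, and the difference was −1.65 (95% CI −1.96 to −1.34). Panx1, which forms ATP-releasing channels, changed by 0.72 in WT and −0.71 in Nos2-/-. Dnajb4, a co-chaperone of Hsp70, changed by 0.39 and −1.26. All 4 had called differences under every alternative run. Mylip, a ubiquitin ligase that lowers the LDL receptor, changed by 0.41 and −0.44, and was the 1 called gene among 31 of sterol and fatty acid metabolism. The list of drug efflux and organic cation carriers gave 3 called genes of 15, all lower, namely Slc22a4, Abcc1 and Slc48a1. The last is the heme transporter already counted with the iron and heme genes. Acsbg1, an acyl-CoA synthetase, and Abcc1 were the called genes nearest the threshold, both at adjusted p = 0.0496 and called under 4 of 20 and 6 of 21 alternatives, and 1600010M07Rik and Fcrl1 were the nearest outside it, both at 0.0501, with differences of −0.42, −0.55, −0.53 and −0.57 in that order.

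Smaller rises included Nos2 itself. Its probe set gave 5.45, 5.40 and 5.65 in untreated and 9.73, 9.81 and 9.64 in stimulated WT, and 5.15, 5.41 and 5.36 and 7.74, 7.45 and 7.88 in Nos2-/-. A transcript was thus still induced in Nos2-/-, to a level that overlapped neither the untreated arrays nor stimulated WT. The files do not say whether the probes lie in the disrupted part, so this gene does not check the genotypes. Arg1, an arginase that competes with NOS2 for arginine, was also induced less, from 4.26, 4.48 and 4.33 to 10.12, 10.08 and 10.33 in WT and from 4.35, 4.54 and 4.80 to 9.40, 9.44 and 8.72 in Nos2-/-. The stimulated genotypes did not overlap, but 1 Nos2-/- array stood apart from the other pair, and the difference of −1.20 (95% CI −1.70 to −0.70) was called under 12 of 21 alternatives. Nos2 and Arg1 were the 2 called genes (12.5%) of 16 for arginine, citrulline and tetrahydrobiopterin, where the list median was −0.09. Arg1 was the 1 called gene among 19 markers of alternative activation.

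Both Hsp70 genes and 4 HIF1a targets rose in both genotypes and rose less in Nos2-/-. Hspa1a, which encodes the inducible Hsp70, had signals of 6.22, 5.92 and 5.98 in untreated and 11.05, 11.17 and 11.07 in stimulated WT, and of 5.87, 6.24 and 6.29 and 9.73, 9.67 and 9.75 in Nos2-/-. All stimulated arrays were far above the untreated ones, and those of Nos2-/- were below those of WT, with a difference of −1.48 (95% CI −1.79 to −1.16). Its near-identical neighbour Hspa1b was at −1.40, and since probes may not separate the pair they are 1 observation. Dnajb4 was also lower among the 16 heat shock chaperones, with 0 higher and a list median of −0.17. Egln3, an oxygen-sensing hydroxylase that is itself a HIF1a target, went from 5.86, 5.47 and 6.09 to 10.24, 10.39 and 10.27 in WT and from 5.76, 6.05 and 6.05 to 9.46, 9.25 and 8.98 in Nos2-/-. The groups did not overlap after stimulation and the difference was −1.22 (95% CI −1.67 to −0.77). Adm, the vasodilator adrenomedullin, went from 4.16, 4.16 and 4.54 to 6.03, 6.32 and 6.33 in WT and from 4.38, 4.27 and 4.56 to 5.18, 5.03 and 5.03 in Nos2-/-, again without overlap after stimulation. Ankrd37, a HIF1a target of unclear function, rose by 2.22 and 1.32, and Mxi1, an antagonist of Myc, by 1.59 and 1.01, though the difference for Mxi1 was called under only 7 of 21 alternatives. These were the 4 lower of 24 other HIF1a targets and hydroxylases (16.7%), Edn1 was the 1 higher, and the list median was −0.13. Hif1a itself rose by 1.96 in WT and 1.97 in Nos2-/-.

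Further smaller rises were in signaling and transcription. Fosl1, an AP-1 subunit, went from 5.21, 5.52 and 5.28 to 7.61, 7.91 and 7.56 in WT and from 5.33, 5.21 and 5.28 to 6.60, 6.44 and 6.39 in Nos2-/-, without overlap after stimulation, a difference of −1.16 (95% CI −1.47 to −0.84). Atf3, a stress-induced repressor, rose by 1.48 and 0.89, called under 9 of 21 alternatives. These were the 2 called among 18 immediate early factors, and Atf3 the 1 called among 26 genes of ATF4 and the integrated stress response. Treml4, a receptor of the TREM family, rose by 1.82 in WT and 0.43 in Nos2-/-. Slc30a1, which exports zinc, rose by 1.30 and 0.48 and was the 1 called among 15 metallothioneins and zinc transporters. Ptger2, a receptor of prostaglandin E2, rose by 2.11 and 1.46. Cxcl3, a neutrophil chemoattractant, rose from 5.72, 5.53 and 5.23 to 11.74, 11.95 and 11.74 in WT and from 5.64, 5.87 and 5.93 to 11.15, 11.28 and 10.67 in Nos2-/-. It was the 1 chemokine of 27 with a called lower difference, −1.09 (95% CI −1.55 to −0.63), called under 13 of 21 alternatives. In that list 16 genes lay below 0. The lowest, Ppbp at −1.18, named after its value was seen, was not called in limma (adjusted p = 0.164).

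Larger rises included secreted proteins, cytokines and regulators of NF-kB. Ptx3, a secreted pattern recognition protein, had signals of 4.89, 4.75 and 5.04 in untreated and 8.15, 8.10 and 8.22 in stimulated WT, and of 4.66, 4.82 and 4.99 and 9.73, 9.21 and 10.14 in Nos2-/-. Each stimulated Nos2-/- array was above every WT array, with a wider spread among them, and the difference was 1.60 (95% CI 1.08 to 2.13). A further probe set of Ptx3, with a mean signal of 4.90, was at 0.16 and was not called. Ptx3 and Cebpd, a transcription factor of the acute phase (0.51), were the 2 higher of 20 acute phase and pattern recognition genes, with 0 lower and a list median of 0.07. Fst, follistatin, which binds activins, went from 4.43, 4.28 and 4.60 to 6.19, 6.14 and 5.97 in WT and from 4.35, 4.07 and 4.33 to 7.18, 6.78 and 7.13 in Nos2-/-, again without overlap after stimulation, a difference of 1.12 (95% CI 0.76 to 1.48). Zfp658, a zinc finger protein, was dim in every group, and rose by 0.65 and 1.80. Tle3, a co-repressor, rose by 1.59 and 2.54 and was called under 14 of 21 alternatives. Edn1, which encodes endothelin 1, the repressor Gfi1 and the semaphorin Sema4c had differences of 0.92, 0.92 and 0.90, and each was called under only 8 alternatives.

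Among cytokines, 3 of 35 were higher (8.57%) and 0 lower, with a list median of 0.03. Tnfsf10, which encodes the death ligand TRAIL, went from 5.58, 5.53 and 5.38 to 8.19, 8.42 and 8.41 in WT and from 5.20, 5.09 and 5.01 to 8.77, 8.70 and 9.20 in Nos2-/-. The genotypes did not overlap in either state. Nos2-/- was lower untreated, which was not called, and higher stimulated, and the difference between the responses was 0.94 (95% CI 0.59 to 1.30). This difference was called under 18 of 21 alternatives, and further probe sets of Tnfsf10, at 0.49 and 0.46, were not called. Tnf went from 8.79, 8.78 and 8.98 to 9.98, 9.81 and 9.84 in WT and from 8.58, 8.67 and 8.83 to 10.27, 10.26 and 10.31 in Nos2-/-. Its untreated arrays overlapped, its stimulated ones did not, and the difference of 0.56 (95% CI 0.32 to 0.81) was called under 9 of 21 alternatives. Edn1 was the remaining higher gene. Chemokines gave 3 higher and 1 lower of 27, with a list median of −0.10. Ccl4, which attracts monocytes and T cells, went from 8.72, 8.79 and 8.76 to 12.18, 11.90 and 12.21 in WT and from 8.43, 8.59 and 8.65 to 12.67, 12.56 and 12.84 in Nos2-/-. It was lower untreated in Nos2-/-, which was not called, and higher stimulated, without overlap in either state. The difference between its responses was 0.79 (95% CI 0.50 to 1.08). The monocyte chemoattractants Ccl7 and Ccl2 had differences of 0.85 and 0.63, called under 12 of 21 and 19 of 21 alternatives. All 3 chemokines lie within 300 gene positions of Nos2 on chromosome 11, where the strain of origin of the knockout can differ from C57BL/6, so that for these genes it cannot be told apart from the loss of Nos2. In that stretch 5 of 284 genes were called (1.76%), the others being Smyd4 (−0.76, with a further probe set at 0.03) and Slc43a2 (−1.01), and without it and Nos2 there were 172 called genes. Both genes called between the untreated genotypes also lay there. Xaf1 was at 10.71, 10.53 and 10.93 in untreated WT and 9.62, 9.96 and 9.98 in untreated Nos2-/-, and Tlcd2 at 5.85, 6.00 and 5.93 and 6.87, 6.65 and 6.70.

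**Figure D3:**
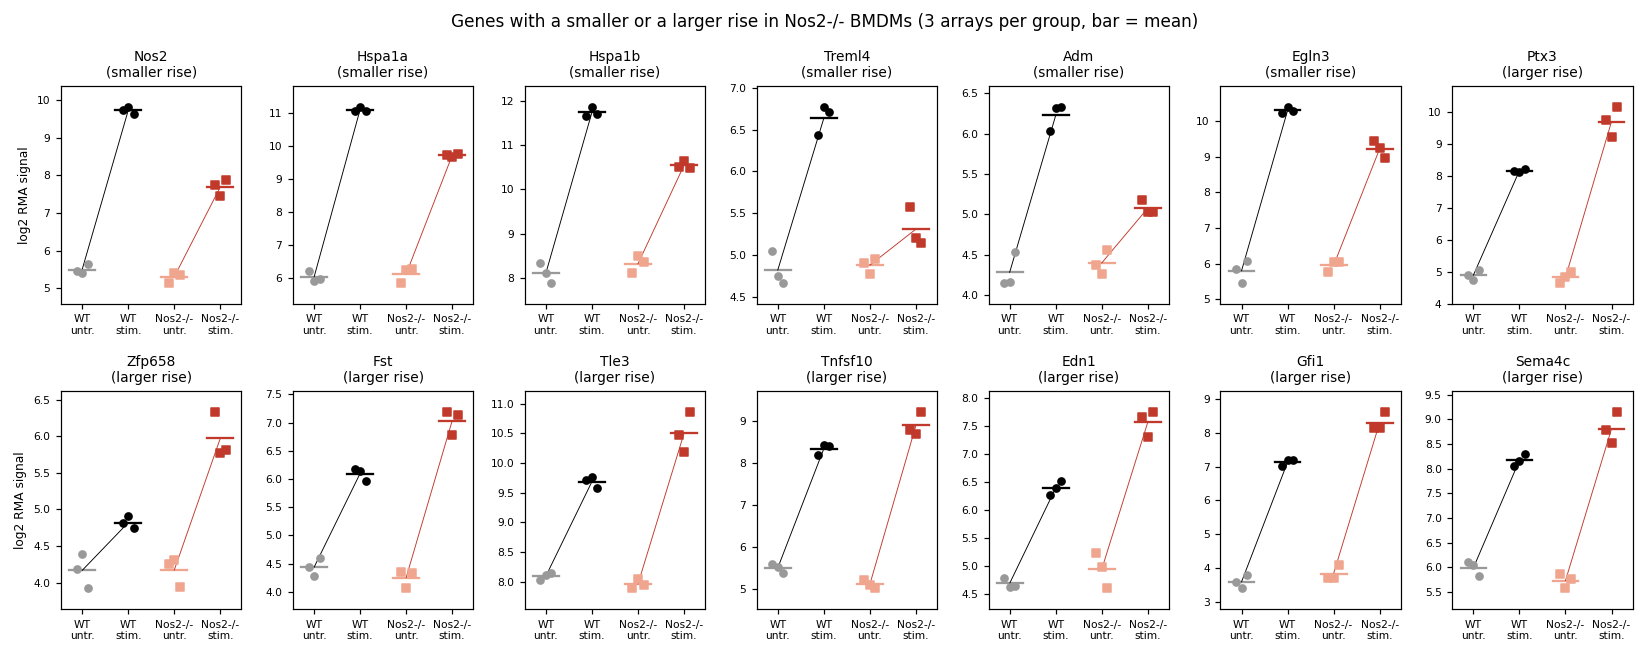
Log2 RMA signals of 6 genes with the largest smaller rise and 8 with the largest larger rise in Nos2-/- BMDMs, for each of 12 arrays (points), with group means (bars) and lines joining untreated to stimulated. The stimulated Nos2-/- arrays lie below stimulated WT in the first 6 panels and above it in the other 8.

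NF-kB genes gave 3 higher of 25 (12%) and 0 lower, against 0.302% and 0.676% of all genes. The list median was 0.16 and 21 members lay above 0, whereas 53.2% of all genes lay below 0. This list too was chosen with earlier results of these data known, so the counts are a description. Nfkbiz, an atypical IkB protein that helps induce secondary response genes, had signals of 10.06, 9.90 and 9.83 and 11.34, 11.52 and 11.42 in WT and of 9.62, 9.63 and 9.74 and 11.74, 11.78 and 11.78 in Nos2-/-. As with Tnfsf10 and Ccl4, Nos2-/- was lower untreated and higher stimulated, without overlap in either state. The untreated differences of these genes were not called. Over all genes the untreated arrays did not overlap in 12.6% and the stimulated arrays in 17.1%. The difference between the responses of Nfkbiz was 0.60 (95% CI 0.38 to 0.83) and was called under every alternative run. The NF-kB subunit gene Rel rose by 0.35 and 1.00, and Map3k8, which encodes a kinase downstream of Toll-like receptors, by 2.05 and 2.58. Their differences were called under 10 of 21 and 7 of 21 alternatives. Klf3, a Kruppel-like repressor, was not called in WT (−0.02) and rose in Nos2-/- (0.55). Gpr18, a lipid-sensing receptor of immune cells, rose by 3.13 and 3.92.

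Weaker falls were led by Gpr34, a receptor for lysophosphatidylserine. Its signals went from 7.85, 7.70 and 7.59 to 4.65, 4.50 and 4.65 in WT and from 7.02, 6.80 and 7.27 to 6.06, 5.25 and 5.85 in Nos2-/-. Nos2-/- arrays lay below WT before stimulation and above WT after it, without overlap. The difference was 1.81 (95% CI 1.29 to 2.32). The stimulated WT signals came below the median of all probe sets on the arrays, so the size of the fall in WT is less certain. Nos2-/- minus WT was −0.68 on the untreated arrays and 1.12 on the stimulated arrays, and the first was not called (adjusted p = 0.871). Klf2, a Kruppel-like factor that restrains macrophage activation, fell from 8.46, 8.58 and 8.82 to 5.80, 6.10 and 5.90 in WT and from 8.20, 8.28 and 8.54 to 7.08, 6.62 and 6.93 in Nos2-/-. Its untreated arrays overlapped and its stimulated Nos2-/- arrays were above stimulated WT, a difference of 1.23 (95% CI 0.83 to 1.63). Txnip, which binds and inhibits thioredoxin, fell from 12.11, 12.10 and 12.17 to 10.89, 10.96 and 10.73 in WT but only from 12.08, 12.13 and 12.12 to 11.63, 11.61 and 11.65 in Nos2-/-, a difference of 0.78 (95% CI 0.58 to 0.99) with little spread in any group. Otud1, a deubiquitinase, changed by −1.02 in WT and was not called in Nos2-/-, at −0.11 (95% CI −0.33 to 0.12), where the treated and untreated arrays overlapped. St8sia4, a polysialic acid synthase, had responses of −2.50 and −1.77, and Zfp518a of −1.04 and −0.44, the latter called under 12 of 21 alternatives. For Ldlrad3 and Ninl, the latter dim in every group, the larger share of the difference lay between the untreated arrays (−0.57 and −0.46) rather than the stimulated ones (0.21 and 0.22), which overlapped. Their differences were called under 12 of 20 and 14 of 20 alternatives. The stimulated means of Ldlrad3 were 4.20 in WT and 4.41 in Nos2-/-, and those of Ninl 2.85 and 3.07. All lay below 5.17, the median of all probe sets and arrays, so the sizes of these falls are less certain. Ccdc112, 2310047D07Rik and Podxl, of other patterns and named after their values were seen, also differed more between the untreated than the stimulated arrays, though their stimulated arrays did not overlap. Klf2 and Klf3 were the 2 called of 15 Kruppel-like factors, and Gpr34, Gpr18 and, lower, Ptger2 the 3 called of 28 purine and lipid receptors.

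**Figure D4:**
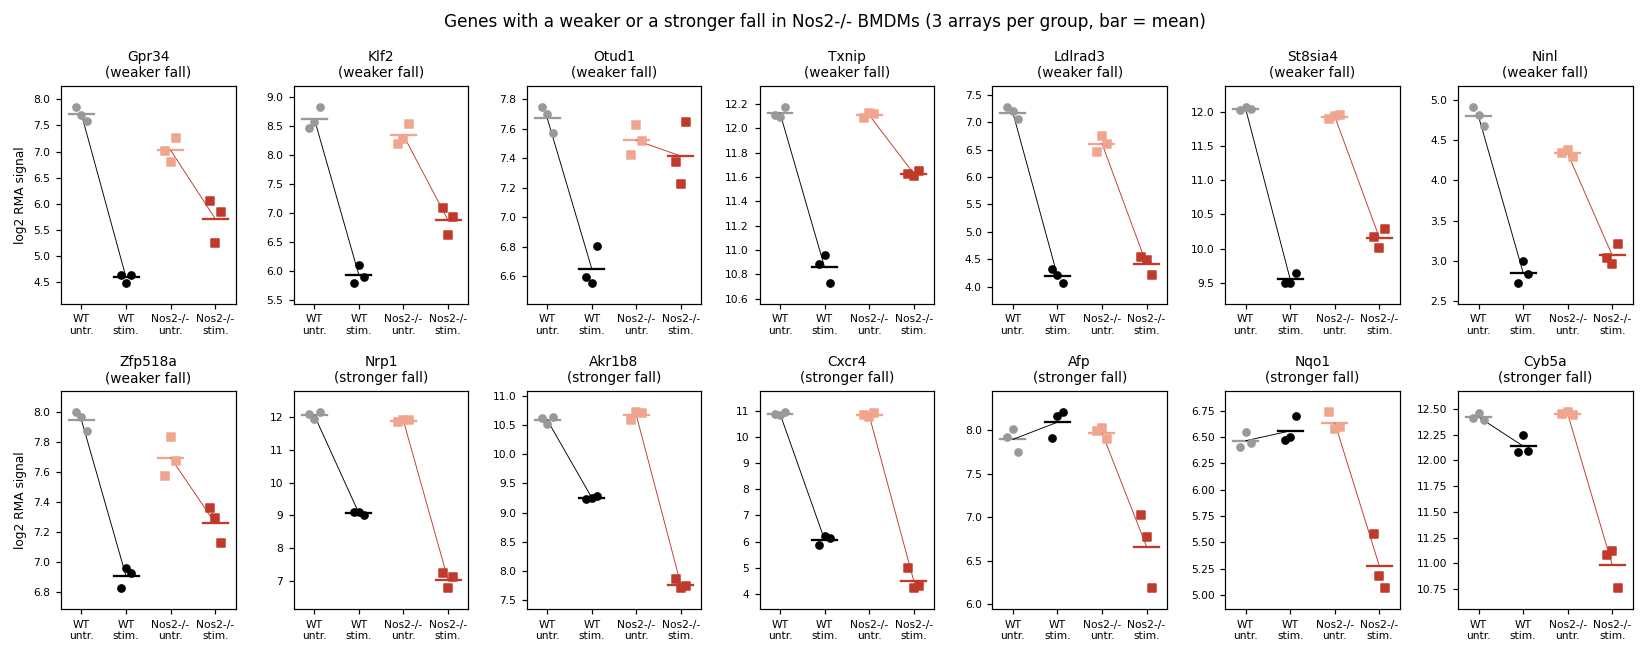
Log2 RMA signals of 8 genes with the largest weaker fall and 6 with the largest stronger fall in Nos2-/- BMDMs, for each of 12 arrays (points), with group means (bars) and lines joining untreated to stimulated. In Gpr34 and Klf2 the stimulated Nos2-/- arrays stay above stimulated WT, and in the 6 stronger falls they lie below it.

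Stronger falls were found in 48 genes. Nrp1, a co-receptor of semaphorins and VEGF, fell from 12.09, 11.92 and 12.13 to 9.09, 9.09 and 9.02 in WT and from 11.83, 11.90 and 11.91 to 7.24, 6.79 and 7.12 in Nos2-/-. All stimulated arrays were well below the untreated ones, and those of Nos2-/- were lowest, a difference of −1.85 (95% CI −2.15 to −1.55), with 3 further probe sets also called. Nrp1 and Sema4c were the 2 called of 27 neuropilins, plexins and semaphorins, and moved in opposite directions. Cxcr4, the receptor of the chemokine CXCL12, fell from 10.87, 10.84 and 10.93 to 5.88, 6.20 and 6.14 in WT and from 10.84, 10.74 and 10.89 to 4.98, 4.23 and 4.32 in Nos2-/-, where the signal came below the median of all probe sets on the arrays, so the size of its fall is less certain. Its difference was −1.51 (95% CI −1.97 to −1.05). Afp, alpha-fetoprotein, was not called in WT, where it went from 7.92, 8.01 and 7.74 to 7.91, 8.16 and 8.20. It went from 7.98, 8.02 and 7.90 to 7.02, 6.77 and 6.19 in Nos2-/-, below every other array. Its difference was −1.50 (95% CI −1.99 to −1.01). Of its 4 further probe sets 2 were called, at −1.23 and −1.29, and 2 dimmer ones were not. Cyb5a, cytochrome b5, went from 12.42, 12.46 and 12.39 to 12.08, 12.24 and 12.09 in WT and from 12.46, 12.47 and 12.44 to 11.08, 11.12 and 10.76 in Nos2-/-, below every other array. Cd36, a scavenger receptor for oxidized lipids, fell in both, with responses of −1.46 and −2.07, and was the 1 called of 23 scavenger and efferocytosis receptors, under 10 of 21 alternatives. Plk2, a kinase induced by p53, had responses of −0.33 and −1.19 and was the 1 called of 23 p53 targets, under 9 of 21 alternatives.

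No gene was called in 6 of the lists, which at 0.978% of all genes is what lists of this size would mostly show, so nothing is read from these counts and their levels are given as description. Of 31 interferon-induced genes 29 rose in WT and 30 in Nos2-/-, with median responses of 2.12 and 2.31. In limma 0 of them had a called difference and 6 had an unadjusted p under 0.05, all higher. Their median was 0.23 and 30 lay above 0, against −0.01 over all genes. Ifit1, which binds viral RNA, rose by 2.74 in WT and 3.00 in Nos2-/-, and Ifit2 of the same family by 2.64 and 2.90. Of 30 genes of the TCA cycle and itaconate 23 fell in WT and 24 in Nos2-/-, with medians of −0.59 in both, and 0 were called for the difference in limma (1 at an unadjusted p under 0.05). Citrate synthase (Cs) had responses of −0.45 and −0.40, and Idh3a, a subunit of isocitrate dehydrogenase, of −1.82 and −1.98. Of 22 glycolysis genes 16 rose in WT and 15 in Nos2-/-, with 0 called differences in limma and 2 at an unadjusted p under 0.05, among them the glucose transporter Slc2a1 (−0.41, adjusted p = 0.0501). Of 36 respiratory chain subunits 29 fell in WT and 32 in Nos2-/-. Here 33 lay below 0, as did 53.2% of all genes, with a median of −0.10. Of these subunits 0 were called in limma and 1 had an unadjusted p under 0.05. Of 29 genes of DNA replication and mitosis 27 fell in each genotype, with medians of −1.68 in WT and −2.02 in Nos2-/-, 0 called in limma and 1 at an unadjusted p under 0.05. Mki67, which encodes the proliferation marker Ki-67, had responses of −0.14 and −0.21. Of 13 dual-specificity phosphatases, which switch off MAP kinases, 0 were called in limma and 5 had an unadjusted p under 0.05. Across the 32 lists 668 genes were measured and 57 called, while 121 called genes were on none.

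**Figure D5:**
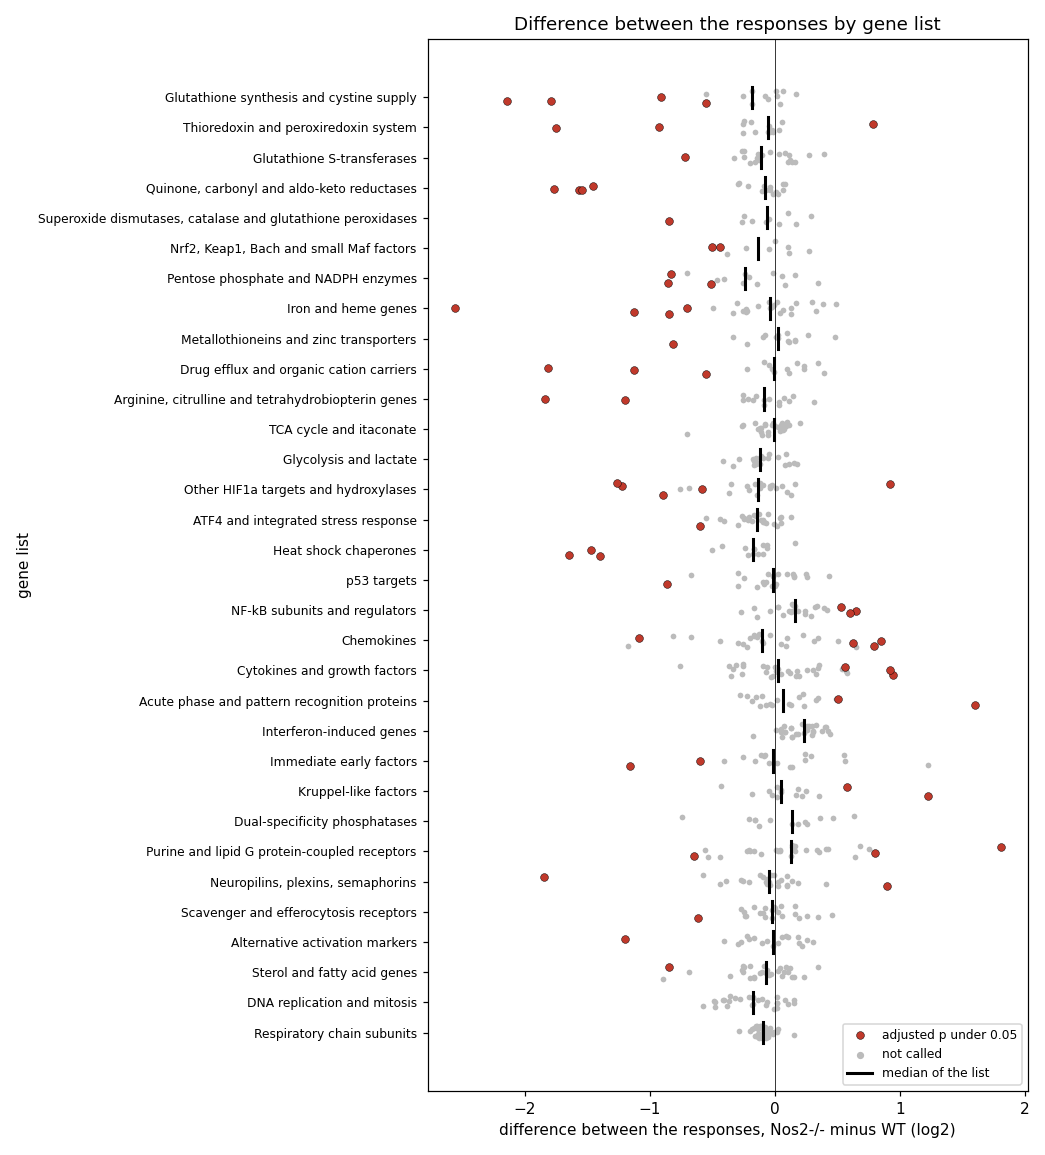
Difference between the responses (x axis, log2, Nos2-/- minus WT) of the measured members of 32 gene lists (y axis), each point a gene, red where called at an adjusted p under 0.05, with a bar at the list median. Called genes lie far to the left in the glutathione, reductase and iron lists, while the interferon-induced genes sit slightly right of 0, with a median of 0.23 and 0 called in limma.

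Further probe sets, present for part of the called genes, mostly had a difference of the same sign, though many were not called. Of the 178, 98 had a total of 172 further probe sets, of which 160 had a difference of the same sign. The exceptions included 1 probe set of Ogt at 0.51, equal in size and opposite to its main value of −0.51. In a fit of the probe sets that name 1 gene 70 of them, from 52 genes, were called, and 0 were called with the opposite sign. Slc40a1 (−2.60) and Gclm (−2.38) were each called again in their second probe set. Probe sets of a gene share the RNA and are not replicates. There were 8 called genes with a mean signal below 6.07, the median of all genes and arrays, in every group.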

How the data were processed

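Affymetrix Mouse Genome 430 2.0 arrays were run on 12 RNA samples. The deposited values are log2 signals, which the authors made from the CEL files with RMA in Partek Genomics Suite, a version not given in the sources used here. They were used as deposited. Array medians ran from 5.14 to 5.21. The files hold no counts, and the precision is limited by the 3 arrays per group. Of 45101 probe sets, 64 controls were left out, and of the rest 34945 name 1 gene, 932 several and 9160 none in the platform annotation. Each gene was represented by its single-gene probe set with the highest mean. limma 3.58.1 in R 4.3.3 fitted 1 mean per group over all 12 arrays (lmFit, eBayes), two-sided, with Benjamini-Hochberg adjustment over 18193 genes and no minimum fold. The fit was tested on simulated data. Calls within each genotype sorted genes into patterns, and "dim" means a mean signal below 6.07. The methods' analysis of variance and its thresholds were run as alternatives, with other normalizations, filters and probe set rules, a replicate block, and each array left out in turn. Whether a gene was called again was counted over 21 alternatives, or 20 where one did not test it.

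Genes were named by a rule, namely the 10, 6, 8, 8 and 6 largest differences of the patterns in the order of the text, Nos2, called members of 32 gene lists, up to 3 uncalled members of a list in list order, and the pairs of genes nearest the threshold. The members, lists and rule were chosen with earlier results of these data known. The labels call the arrays biological replicates but tie none to an animal, so p-values measure the spread between these arrays. Replicate numbers were checked for pairing. Correlations of same-numbered deviations ran from −0.26 to 0.21 over 18 pairs, so no block was used. Between the genotypes they were 0.11, 0.03 and 0.21 for untreated and −0.26, 0.07 and −0.10 for stimulated arrays. With 3 arrays per group this does not exclude pairing. Promoters and gene order were taken from RefSeq (GRCm38.p6) with Python 3.11.15, and 18145 genes matched its gene table.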

Additional observations from a re-analysis of the deposited data

Results flagged for a closer look

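The difference between the responses was itself tested, and it was above 0 in 55 genes and below 0 in 123. In 24 genes both responses were called and had opposite directions, with a called difference. Of these, 22 rose in WT and fell in Nos2-/-. The differences were −2.56 for Slc40a1, −2.15 for Gclm, −1.82 for Slc22a4, −1.79 for Gclc, −1.77 for Cbr3, −1.65 for Dnajb4, −1.54 for Ptgr1, −1.43 for Panx1, −1.13 for Slc48a1, −0.85 for Mylip, −0.83 for Me1, −0.72 for Gstp1 and −0.51 for Pgd. On no gene list were Cdkn2b, an inhibitor of cyclin-dependent kinases, at −1.01, Zadh2 at −0.99, Impact, a regulator of GCN2, at −0.96, Tshz1 at −0.91, Pdlim4 at −0.87, Card19 at −0.86, Lonrf1 at −0.60, Ogt, which adds O-GlcNAc to proteins, at −0.51 and Kansl2 at −0.47. A further probe set of Ogt, above the median signal, gave 0.51 and was not called, so its direction depends on the probe set. The other 2 fell in WT and rose in Nos2-/-, namely the transcription factor Foxp1 at 0.51 and Ubtd2 at 0.49.

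Probe sets that name no single gene were outside the comparison. Of 9160 that name no gene 2 were higher and 12 lower in a limma fit of all probe sets. The largest, at −2.87, rose by 2.26 in WT and changed by −0.61 in Nos2-/-. Of 932 that name several genes 0 were higher in limma and 2 were lower.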

How the results depend on the processing

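The number of called differences varied with the processing. Their direction hardly changed, but this is largely built in, because the alternatives reuse the arrays that chose the genes. Under each of the 9 other models, scalings, filters, summaries and thresholds and with each of 12 arrays left out, 0 of the 178 called genes tested changed sign, except for 1 gene when probe sets ending in _s_at or _x_at were left out. Of 73 named genes with a called difference, 33 stayed called under every alternative run and 21 under fewer than 15. A linear model without moderation gave 29 higher and 79 lower genes, with 24 lost or reversed rises, 18 larger rises and 26 stronger falls. Moderation with an intensity trend gave 124 higher genes, 89 larger rises, 35 weaker falls and 83 stronger falls, and leaving out genes under the median signal gave 116, 81, 35 and 88. The thresholds of the methods gave 87 higher genes, 23 lost or reversed rises and 65 larger rises. Asking 1.5-fold of the responses within a genotype left 24 lost or reversed rises.

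With 1 array left out, the higher genes ran from 21 to 82, the lower genes from 72 to 128, lost or reversed rises from 25 to 36, smaller rises from 22 to 34, larger rises from 16 to 61, weaker falls from 5 to 21 and stronger falls from 25 to 60. The total of 178 was 93, 96 and 106 without untreated WT arrays 1, 2 and 3, 114 without stimulated WT array 1 and 115 without untreated Nos2-/- array 1. It was 210 without stimulated Nos2-/- array 2. The higher genes were also 28 without stimulated WT array 1, 26 and 32 without untreated Nos2-/- arrays 1 and 2 and 27 without stimulated Nos2-/- array 1, while stronger falls were 28 without stimulated WT array 3. The cause was not tested. Replicate numbers showed no consistent pairing of the arrays, but pairing was not excluded. With the number as a replicate block there were 51 higher and 100 lower genes. The patterns then held 31 lost or reversed rises, 29 smaller rises, 38 larger rises, 13 weaker falls and 40 stronger falls. Another scaling gave 47 higher and 91 lower genes with arrays centred on their medians and 62 and 147 after quantile normalization. Of the 172 further probe sets of called genes 160 had the same sign, and the others, 0 of which were called in limma, included 1 of Afp (0.065), 1 of Plk2 (0.23), 1 of Gpt2 (0.23), 1 of Smyd4 (0.03) and 1 of Ogt (0.51), which equals its main difference in size. Signals near background limit the size of changes in dim genes.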

Other observations

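Of the 178 called genes, 121 were on no gene list. The genes named here were chosen after their values were seen. Smaller rises included the TNF family ligand Tnfsf4 (1.88 in WT and 0.69 in Nos2-/-), the endothelin receptor Ednrb (2.74 and 1.60) and Ero1a, an oxidase of the endoplasmic reticulum (2.45 and 1.85). The endothelin ligand Edn1 had a difference above 0 and its receptor Ednrb one below 0. Osgin1, an oxidative stress response gene, rose by 1.18 and 0.56.

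Stronger falls included Cebpa, a transcription factor of the myeloid lineage. Its log2 signals went from 9.56, 9.68 and 9.71 to 7.54, 7.53 and 7.37 in WT and from 9.49, 9.52 and 9.42 to 6.58, 6.45 and 5.89 in Nos2-/-, and the stimulated arrays did not overlap. The difference was −0.996, with adjusted p = 0.0246 in limma. Its relative Cebpd was among the larger rises. Lipa, the acid lipase of lysosomes, had responses of −2.06 and −2.85, and the GTPase Rhob of −0.49 and −1.55. Lrp8, a receptor of the LDL receptor family, was not called in WT (−0.10) and fell in Nos2-/- (−1.22). Mylip, a ligase whose known targets include Lrp8, was among the reversed rises. Got1 and Gpt2, aminotransferases that join amino acid and TCA cycle metabolism, were not called in WT (0.11 and −0.11) and fell in Nos2-/- (−0.44 and −0.52), though Gpt2 was dim in every group and had a further probe set of opposite sign. Weaker falls included Ikzf1, a lymphoid and myeloid transcription factor, which changed by −0.59 in WT and was not called in Nos2-/- (0.01).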
